A study of Mus musculus with 6 samples.

Results

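The genes described here encode the P2Y and P2X receptors for extracellular nucleotides, the adenosine receptors, and the proteins numbered in the Gpr series. They were taken by symbol: every gene whose probe set carried the single platform symbol Gpr, P2ry or P2rx followed by a number, or a symbol starting with Adora, except Gpr34, P2ry12 and P2rx7. This gave 75 of the 18193 genes measured, 60 of them Gpr genes and 15 of them P2Y, P2X or adenosine receptor genes. Each gene was read from its probe set with the highest mean log2 intensity over the 6 arrays.

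Bone marrow macrophages came from wild-type (WT) mice or from mice with a knockin (KI), all of strain C57BL/6, with 3 arrays for each genotype. Both groups were kept for 24 hours with RANKL (100 ng/ml) and the growth factor M-CSF (44 ng/ml), so that WT and KI cells alike were in the first day of osteoclast culture. The series title names the IVVY motif of RANK, the receptor for RANKL. The altered residues, the age of the mice and whether the 3 arrays of a genotype came from separate animals are not stated in the labels, so the p-values measure the spread between these arrays, which may be technical.

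Cells release ATP and other nucleotides, which open the P2X cation channels and bind the P2Y receptors, a family that signals through G proteins. Enzymes on the cell surface then trim the nucleotides to adenosine, which has receptors of its own. Macrophages and osteoclasts carry several receptors of each kind, and nucleotides act on both. The Gpr numbers were given to sequences that looked like G protein-coupled receptors before a ligand was known. Some now have lipid, proton or metabolite ligands, some remain orphans, and a few turned out to be membrane proteins of the Golgi apparatus or lysosomes.

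Median intensities lay between 83.0 and 84.8 on the 6 arrays. Of 8 macrophage markers measured, 7 were higher in KI cells, and their summed intensity ranged from 90761 to 111246 in WT and from 135581 to 141077 in KI. Of 8 osteoclast markers, 6 were lower, with sums of 63921 to 73216 in WT and 29271 to 32597 in KI. Of 9 markers of neutrophils and myeloid progenitors, 2 were higher, S100a8 and Mmp8, with sums of 16173 to 20394 in WT and 23105 to 45074 in KI. The dendritic cell list had 1 higher gene of 7, Cd209a (sums of 387 to 399 in WT and 411 to 416 in KI). The erythroid and megakaryocyte list had 1 higher gene of 7, the platelet chemokine Pf4 (sums of 2531 to 3425 in WT and 7544 to 9206 in KI). None of the 7 mast cell, 6 B cell, 6 T and NK cell or 6 stromal markers measured passed the test. The stromal sums ranged from 2705 to 8878 in WT and from 2681 to 10373 in KI, a wide spread between arrays of the same genotype. Sums of the mast cell, B cell and T and NK cell lists lay between 285 and 499. No marker was below 16, the floor set on intensities, on all arrays. In the array WT 1 all 8 macrophage markers had their lowest WT intensity. In bulk RNA, fewer cells of a type and less RNA per cell cannot be told apart, and the part of these marker shifts in the results below was not tested.

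The start regions of 4 genes are printed, picked from the genes with the largest rise or fall of their lists. P2ry13 and Gpr65 were higher in KI cells, and Gpr132 and Gpr18 lower. Each runs 5′ to 3′ from 250 bases before the annotated start to 50 bases after it, from RefSeq (GRCm38.p6). Capitals mark GAGGAA, the core of the PU.1 site, and CANGTG on either strand. CANGTG is an E-box pattern with any base at N, which takes in the sites of MiT family factors and other E-boxes besides.
P2ry13 (chr3:59210833-59211132, minus strand): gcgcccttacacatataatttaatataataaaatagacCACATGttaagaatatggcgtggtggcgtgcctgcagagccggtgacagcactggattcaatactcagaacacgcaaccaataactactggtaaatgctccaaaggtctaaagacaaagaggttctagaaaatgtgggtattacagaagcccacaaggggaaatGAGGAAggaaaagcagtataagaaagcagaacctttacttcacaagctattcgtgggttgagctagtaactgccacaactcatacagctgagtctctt
Gpr65 (chr12:98268385-98268684, plus strand): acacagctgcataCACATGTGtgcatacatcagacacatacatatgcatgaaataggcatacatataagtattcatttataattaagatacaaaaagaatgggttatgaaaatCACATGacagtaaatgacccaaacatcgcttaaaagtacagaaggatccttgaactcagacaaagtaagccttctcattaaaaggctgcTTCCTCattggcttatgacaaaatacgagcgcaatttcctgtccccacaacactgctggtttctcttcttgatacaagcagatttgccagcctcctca
Gpr132 (chr12:112860867-112861166, minus strand): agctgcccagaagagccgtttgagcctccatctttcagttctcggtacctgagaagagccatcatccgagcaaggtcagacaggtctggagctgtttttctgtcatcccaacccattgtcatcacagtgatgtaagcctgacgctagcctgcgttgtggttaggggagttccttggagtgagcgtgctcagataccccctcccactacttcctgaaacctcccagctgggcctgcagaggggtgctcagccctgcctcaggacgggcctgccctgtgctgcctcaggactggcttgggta
Gpr18 (chr14:121915839-121916138, minus strand): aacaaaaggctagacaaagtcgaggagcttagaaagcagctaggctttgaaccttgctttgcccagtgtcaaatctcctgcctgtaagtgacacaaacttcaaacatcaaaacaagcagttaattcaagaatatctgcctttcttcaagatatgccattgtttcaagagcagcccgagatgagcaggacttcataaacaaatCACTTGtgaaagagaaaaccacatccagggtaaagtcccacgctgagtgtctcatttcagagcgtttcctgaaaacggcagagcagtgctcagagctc
The P2ry13 region held 1 PU.1 core and 1 E-box, and the Gpr65 region 1 PU.1 core and 3 E-box matches, of which a pair overlap. The Gpr132 region held neither motif, and the Gpr18 region 1 E-box. The regions of Gpr160 and P2rx4, which also had the largest rises of their lists and are not printed, held no PU.1 core. A start region was on hand for 57 of the 75 genes. GAGGAA was found in 5 of the 11 start regions of genes higher in KI and in 0 of 6 of those lower, where 28.3% of 27025 regions of the same length held it. CANGTG was found in 7 of the 11 and 2 of the 6, against 44.8% of all regions. TGANTCA, the AP-1 site, was found in 1 of the 11 and 1 of the 6, against 7.93%, and GGAAA, the NFAT core, in 7 of the 11 and 4 of the 6, against 61.3%. GGAAA can overlap GAGGAA where an A follows. These matches describe letters in a window and no binding.

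KI cells had higher signal for 12 of the 75 receptor genes and lower signal for 8, and 55 did not pass the threshold (limma, Benjamini-Hochberg adjusted p under 0.05 over all genes). Over all 18193 genes, 26.8% were called, 11.9% as higher and 14.9% as lower, so the share of these genes called, 26.7%, lay at the background. At least 2-fold differences were found for 7 higher and 2 lower receptor genes, where 2.68% and 2.59% of all genes passed both criteria. The median log2 difference was 0.037 for the receptor genes and -0.0013 for all genes. The KI and WT intensities did not overlap for 28 receptor genes, against 45.5% of all genes. The mean of 26 receptor genes lay above the median of all probe sets, and 15 of these were called, where 40.9% of all genes above it were called (17.8% higher and 23.1% lower). Of the other 49, 5 were called, where 5.41% of all genes not above the median were. The counts turned to 8 higher and 14 lower when the arrays were scaled to the newer probe sets of the hybridisation controls, which are spike-ins (newer-control scaling). They turned to 8 higher and 29 lower with the older sets of those controls (older-control scaling). These scalings moved the median of all genes by -0.20 and -0.51, respectively. Under newer-control scaling 1284 of all genes were higher and 4961 lower (34.3% called), and under older-control scaling 421 and 8186 (47.3% called). The receptor counts were 11 higher and 11 lower without WT 1 and KI 1, where 24.7% of all genes were called. Single arrays also moved the counts: 5 were higher without WT 2, 6 without KI 1, 4 without KI 2 and 2 without KI 3, and 4 were lower without KI 3. The share of all genes called fell too, to 24.1% without WT 1, 18% without WT 2 and 19.4% without WT 3. It was 15.2% without KI 1, 17.4% without KI 2 and 11% without KI 3. Calls of single genes below that ended without 1 array stand beside these shares.

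**Figure D1:**
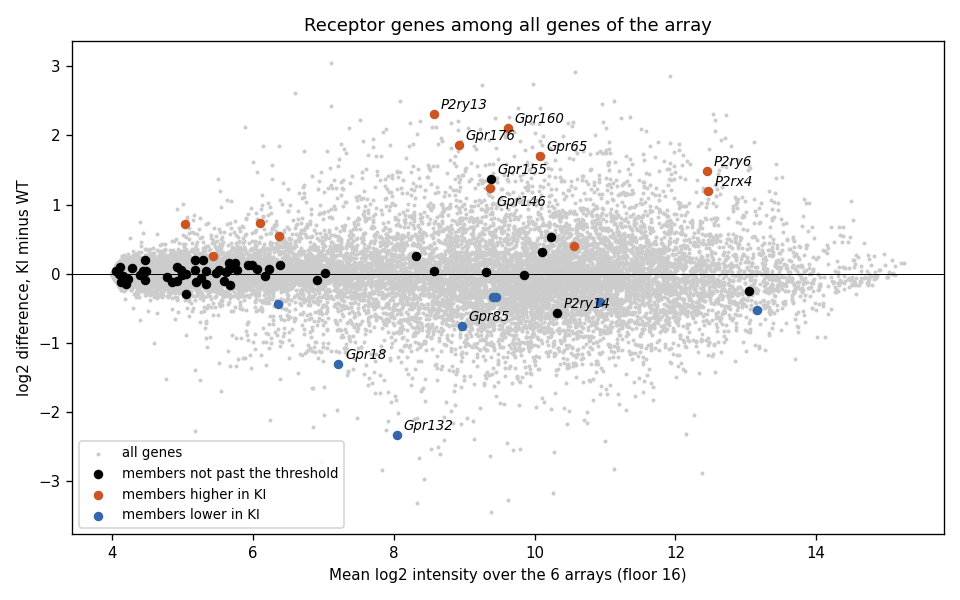
Each grey point is 1 of 18193 genes, with its mean log2 intensity over the 6 arrays on the horizontal axis and the log2 difference KI minus WT on the vertical axis; large points are the 75 receptor genes, orange where higher in KI, blue where lower and black where not past the threshold. P2ry13 (2.30) and Gpr132 (-2.33) lie at the top and bottom of the receptor genes.

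P2Y receptors included the largest rise in this set of genes. Of 7 P2Y genes counted here, 4 were higher in KI cells, 1 was lower and 2 did not pass, where 26.8% of all genes were called. The balance was 3 higher and 2 lower under newer-control scaling (34.3% of all genes called), and 2 higher and 3 lower under older-control scaling (47.3%). It was 2 higher without WT 1 (24.1% of all genes called), WT 2 (18%) or KI 2 (17.4%), and 1 higher without KI 3 (11%).

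P2ry13 encodes a receptor for ADP that couples to inhibitory G proteins. Its intensity was 109, 225 and 206 on WT 1, WT 2 and WT 3, and 867, 811 and 866 on KI 1, KI 2 and KI 3. The KI arrays were close together and all stood above the WT arrays, of which WT 1 was the lowest. The mean was 180 ± 62.4 (SD, n = 3) in WT and 848 ± 31.9 (SD, n = 3) in KI, a log2 difference of 2.30 (SE 0.29, adjusted p = 0.0058) or 4.94-fold. The call was kept with each single array left out and under both control scalings, where the difference was 2.10 and 1.77.

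P2ry6, the receptor for UDP, coupled to calcium release, gave 2095, 4083 and 4311 on the WT arrays and 10694, 8258 and 9153 on the KI arrays. WT 1 was again the lowest array, KI 1 the highest, and the groups were apart. The log2 difference was 1.48 (SE 0.30, adjusted p = 0.020), a 2.80-fold rise. Its call ended without KI 1 (adjusted p = 0.069), KI 2 (0.0504) or KI 3 (0.070), and the difference was 0.95 under older-control scaling.

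P2ry1, another ADP receptor, and P2ry2, a receptor for ATP and UTP, rose from low intensities. P2ry1 gave 50.2, 51.0 and 58.9 in WT and 109, 75.9 and 83.3 in KI, a log2 difference of 0.73 (SE 0.15, adjusted p = 0.022). P2ry2 gave 74.1, 62.0 and 70.6 in WT and 86.8, 121 and 97.2 in KI, a difference of 0.55 (SE 0.14, adjusted p = 0.041). Both had KI arrays above all WT arrays, within a narrow range of intensity. The call for P2ry1 ended without WT 1 (adjusted p = 0.061), WT 2 (0.069) or KI 3 (0.067), and under older-control scaling (0.20, adjusted p = 0.48). The call for P2ry2 ended without WT 1 (0.066), WT 2 (0.11), WT 3 (0.092), KI 2 (0.070) or KI 3 (0.10), and its difference was 0.34 (adjusted p = 0.19) and 0.02 (adjusted p = 0.95) under the control scalings.

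P2ry10b, a near relative of the lysophosphatidylserine receptor gene P2ry10, was the P2Y gene that fell. It gave 710, 825 and 777 in WT and 562, 653 and 609 in KI, a log2 difference of -0.34 (SE 0.09, adjusted p = 0.039). The groups did not overlap, but the call ended without WT 2 (adjusted p = 0.11), WT 3 (0.10), KI 1 (0.10), KI 2 (0.056) or KI 3 (0.11) and with quantile normalization (0.087). It was -0.55 and -0.87 under the control scalings.

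P2ry14, the receptor for UDP-glucose, gave 1275, 1563 and 1932 in WT and 1192, 911 and 1067 in KI. All KI arrays were below all WT arrays, and the log2 difference of -0.58 (SE 0.18, adjusted p = 0.067) did not pass. It passed without WT 1 (-0.73, adjusted p = 0.033), without WT 1 and KI 1 (-0.82, adjusted p = 0.034) and under both control scalings (-0.78 and -1.11). P2ry4, a receptor for UTP, differed by -0.10 (SE 0.07, adjusted p = 0.34) between intensities of 43.3 and 53.2, and it passed at -0.63 (adjusted p = 0.027) under older-control scaling. P2ry10, whose product binds lysophosphatidylserine, lay below the floor of 16 on 2 of the 6 arrays and just above it on the others, between 15.6 and 19.1. It differed by 0.095 (SE 0.09, adjusted p = 0.51).

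Several of these genes neighbour each other in the RefSeq annotation. P2ry6 and P2ry2 are adjacent on chromosome 7, with no coding gene between them, and both were higher in KI (1.48 and 0.55). On chromosome 3, P2ry14 and P2ry13 have 1 coding gene between them, and their differences had opposite signs (-0.58 and 2.30). Gpr171, which adjoins P2ry14, differed by 0.084 at intensities from 18.1 to 21.6. P2ry10 and P2ry10b are adjacent on the X chromosome.

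Among P2X channel genes 1 of 6 was higher in KI, 1 lower and 4 did not pass, where 26.8% of all genes were called. These counts were the same under either control scaling, where 34.3% and 47.3% of all genes were called. P2rx4 encodes an ATP-gated channel that macrophages hold largely in lysosomal membranes. Its intensity was 2335, 4583 and 4793 on the WT arrays and 9211, 7799 and 8586 on the KI arrays. WT 1 lay far below WT 2 and WT 3, and every KI array was above them. The log2 difference was 1.20 (SE 0.29, adjusted p = 0.034), or 2.29-fold. All 4 probe sets of P2rx4 were higher in KI, by 0.76 to 1.20, and 1 of them passed when all 45037 probe sets were tested (18.7% of which passed). The gene did not pass once any of these was left out: WT 2 (adjusted p = 0.055), KI 1 (0.10), KI 2 (0.077) or KI 3 (0.10). The difference was 0.80 (adjusted p = 0.0077) without WT 1 and KI 1, 0.67 (adjusted p = 0.028) under older-control scaling, and 0.76 (adjusted p = 0.046) when sets matching more than 1 transcript were left out.

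P2rx5, an ATP-gated channel gene of the same family, went the other way. It gave 86.9, 103 and 97.5 in WT and 63.0, 74.0 and 75.7 in KI, a log2 difference of -0.44 (SE 0.11, adjusted p = 0.034). The groups were apart, although the call ended without WT 2 (adjusted p = 0.097), WT 3 (0.093), KI 1 (0.080), KI 2 (0.072) or KI 3 (0.074), and the difference was -0.97 under older-control scaling. P2rx1, P2rx2, P2rx3 and P2rx6 lay between 37.9 and 94.5 on all arrays and differed by -0.036 to 0.13, with adjusted p-values of 0.30 to 0.84.

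Adora3, an adenosine receptor gene whose product couples to inhibitory G proteins, is the only Adora gene with a value here. It gave 60.7, 60.1 and 54.8 in WT and 59.3, 66.4 and 65.4 in KI. The groups overlapped, and the log2 difference of 0.12 (SE 0.07, adjusted p = 0.30) did not pass. It was -0.085 and -0.41 under the control scalings, neither past the threshold.

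**Figure D2:**
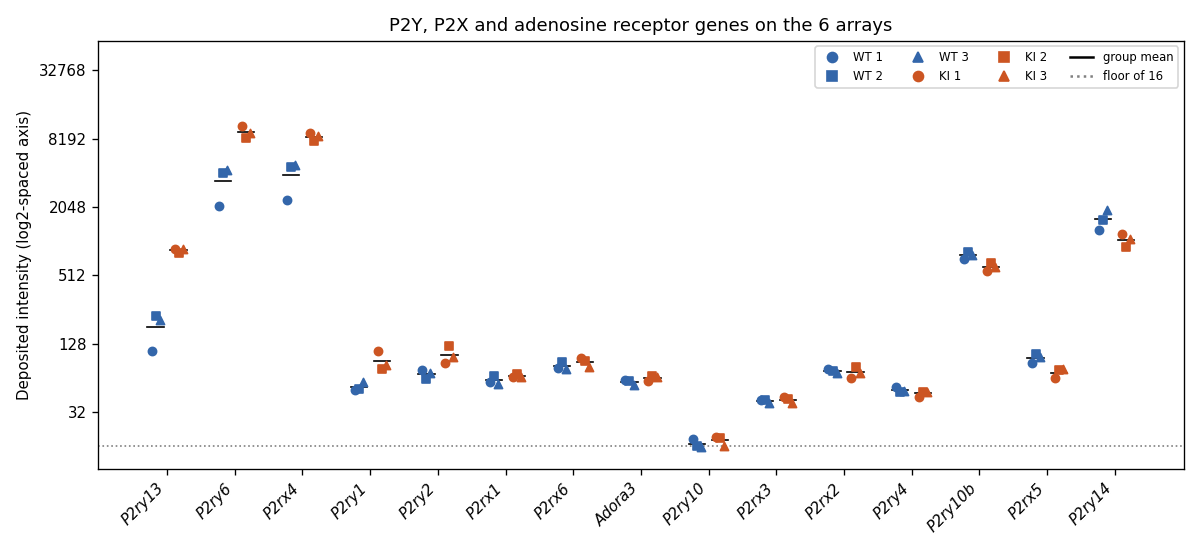
Deposited intensity on a log2-spaced axis for the 15 P2Y, P2X and adenosine receptor genes, 1 symbol for each array, blue for WT and orange for KI, with a black line at each group mean and a dotted line at the floor of 16. P2ry13, P2ry6 and P2rx4 have all KI arrays above all WT arrays, with WT 1 the lowest array of each.

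The proton sensing receptors moved in opposite directions. Gpr4 and Gpr65 respond to extracellular acid through histidines, and Gpr132 is grouped with them by sequence. Gpr132 was lower, Gpr65 higher, and Gpr4 did not pass, under the deposited values and under both control scalings.

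Gpr132, which also responds to oxidised fatty acids, had the largest fall of the 75 genes. It gave 504, 591 and 693 in WT and 140, 104 and 111 in KI, so that the lowest WT array stood well above the highest KI array. The mean was 596 ± 94.5 (SD, n = 3) in WT and 118 ± 18.9 (SD, n = 3) in KI, a log2 difference of -2.33 (SE 0.17, adjusted p = 0.0019), or 5.03-fold lower in KI. The call was kept in all 19 alternatives in which the gene was tested, with adjusted p-values up to 0.046. A second Gpr132 probe set, with intensities of 19.5 to 35.5, differed by -0.33 (SE 0.17) and did not pass (adjusted p = 0.27 over all probe sets). With 1 mean over both probe sets the fall was -1.33.

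Gpr65, which raises cyclic AMP when the medium turns acid, gave 350, 783 and 783 in WT and 2004, 1900 and 1969 in KI. WT 1 was less bright than the other WT arrays, while the KI arrays were nearly equal. The log2 difference was 1.71 (SE 0.33, adjusted p = 0.018), or 3.27-fold. Its call ended without KI 1 (adjusted p = 0.061), KI 2 (0.054) or KI 3 (0.067), and without WT 1 and KI 1 the difference was 1.30 (adjusted p = 0.0049). Gpr4 ranged from 120 to 145 on the 6 arrays and differed by 0.0064 (SE 0.10).

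Receptors for lipids and metabolites gave 2 falls and 1 rise among 7 genes, where 26.8% of all genes were called. They gave 3 falls and no rise by limma under either control scaling, where 34.3% and 47.3% of all genes were called. At an unadjusted p under 0.05, 1 rise was left under newer-control scaling and 0 under older-control scaling. Gpr18 has been proposed as a receptor for lipid mediators that resolve inflammation. It gave 179, 266 and 270 in WT and 110, 86.1 and 88.0 in KI, a log2 difference of -1.31 (SE 0.20, adjusted p = 0.0093) or 2.49-fold lower in KI. All KI arrays lay below all WT arrays, and the call was kept with each array left out. It ended with the samples' description number as a covariate (adjusted p = 0.071).

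Gpr183, the oxysterol receptor that guides osteoclast precursors and B cells, gave 2246, 2219 and 2265 in WT and 1626, 1794 and 1633 in KI. The WT arrays differed by little, and the KI arrays lay below them, with a log2 difference of -0.41 (SE 0.05, adjusted p = 0.0066). Its second probe set differed by -0.58 (SE 0.05, adjusted p = 0.0048 over all probe sets), and the call was kept with each array left out. Gpr18 and Gpr183 are adjacent on chromosome 14, and both fell.

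Gpr31b, a receptor for a hydroxylated arachidonic acid, gave 24.2, 24.7 and 28.3 in WT and 34.1, 47.4 and 46.2 in KI, all near the bottom of the scale. Its log2 difference of 0.71 (SE 0.15, adjusted p = 0.021) was 0.36 when 32 was added to the intensities. The call ended without WT 1 (0.056), WT 2 (0.064), KI 2 (0.059) or KI 3 (0.075) and under the control scalings (0.063 and 0.46). Gpr84, a receptor for medium-chain fatty acids, overlapped between groups, with 445, 252 and 223 in WT and 223, 531 and 361 in KI. Gpr35, Gpr174 and P2ry10, the other genes of this list, lay between 15.1 and 36.8 on all arrays and did not pass.

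The remaining Gpr genes, 41 of the 75, gave 3 of the 7 rises of at least 2-fold, all of them in orphan receptors. Of all genes, 2.68% were called higher with at least a 2-fold difference. Of the 41 Gpr genes that fall in no other list, 4 were higher, 1 was lower and 36 did not pass, which is 12.2% called beside 26.8% of all genes, and 34 of the 41 had a mean at or below the median of all probe sets. Under the control scalings 3 were higher and 4 lower, or 3 and 17, where 34.3% and 47.3% of all genes were called. Higher counts were 2 without WT 2 (18% of all genes called), KI 1 (15.2%) or KI 2 (17.4%) and 1 without KI 3 (11%).

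Gpr160, an orphan receptor, gave 210, 478 and 546 in WT and 1930, 1444 and 1586 in KI. The log2 difference was 2.11 (SE 0.38, adjusted p = 0.015), or 4.32-fold, and the groups were far apart, with WT 1 lowest and KI 1 highest. Its call ended without KI 1 (adjusted p = 0.055) or KI 3 (0.058).

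Gpr176, an orphan receptor known from the circadian pacemaker of the brain, gave 179, 301 and 308 in WT and 1228, 718 and 901 in KI. The difference was 1.86 (SE 0.29, adjusted p = 0.010), or 3.63-fold, and was kept with each array left out. WT 1 was again the lowest array and KI 1 the highest.

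Gpr146, an orphan receptor with a part in lipoprotein levels in blood, gave 281, 477 and 586 in WT and 1258, 854 and 966 in KI. Its log2 difference was 1.24 (SE 0.30, adjusted p = 0.034). Its other 3 probe sets were higher by 0.24 to 1.02, of which the one at 1.02 passed (adjusted p = 0.019 over all probe sets). The call of the gene ended without WT 2 (0.075), KI 1 (0.10), KI 2 (0.065) or KI 3 (0.096). The difference was 0.78 (adjusted p = 0.031) without WT 1 and KI 1 and 0.71 under older-control scaling.

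Gpr85, an orphan receptor best known from neurons, fell. It gave 561, 628 and 784 in WT and 355, 407 and 390 in KI, a log2 difference of -0.76 (SE 0.14, adjusted p = 0.015), with the groups apart. Of its other probe sets, those at -0.99 (adjusted p = 0.022) and -0.57 (adjusted p = 0.015) also fell over all probe sets, and the last lay below the floor on all arrays. The call of the gene ended without KI 1 (0.054) or KI 3 (0.058), and the difference was -1.29 under older-control scaling.

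Gpr39, which responds to zinc, gave 42.5, 38.4 and 37.6 in WT and 44.6, 49.5 and 47.2 in KI, a narrow gap of 0.26 on the log2 scale (SE 0.07, adjusted p = 0.046). The call ended without WT 2 (0.13), WT 3 (0.12), KI 1 (0.066), KI 2 (0.12) or KI 3 (0.12), with a common median (0.053), with robust eBayes (0.052), with the samples' description number as a covariate (0.225), without sets matching more than 1 transcript (0.0502) and under newer-control scaling (0.050, adjusted p = 0.75), and the sign turned under older-control scaling (-0.27, adjusted p = 0.29). Gpr162, an orphan receptor, gave 479, 1340 and 1549 in WT and 1721, 1185 and 1480 in KI. Its groups overlapped, with WT 1 alone low, and the log2 difference of 0.53 (SE 0.47, adjusted p = 0.47) turned to -0.12 without WT 1 and KI 1.

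**Figure D3:**
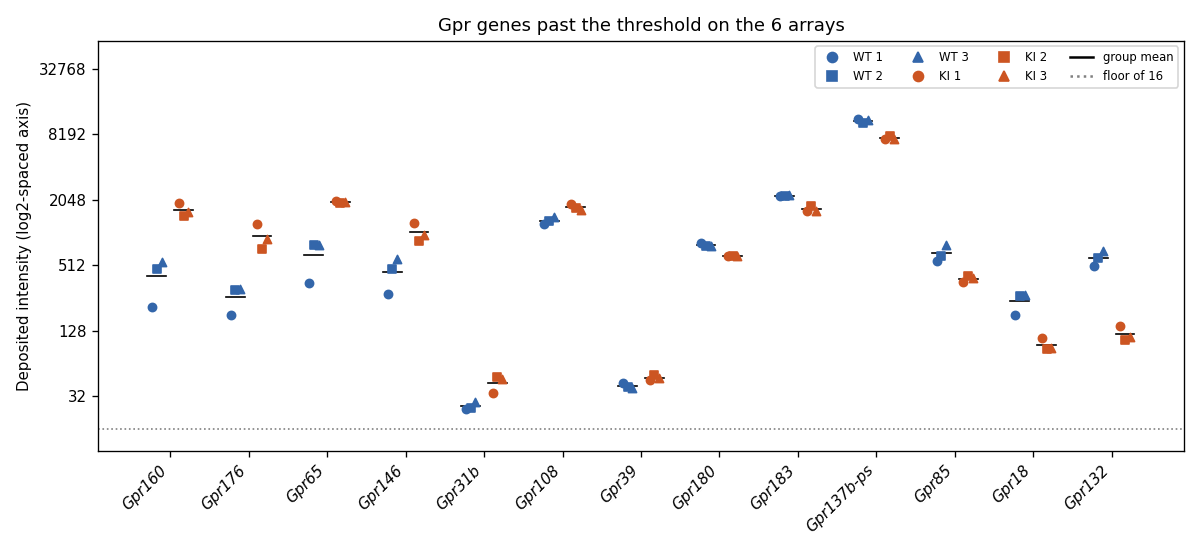
Deposited intensity on a log2-spaced axis for the 13 Gpr genes past the threshold, 1 symbol for each array, blue for WT and orange for KI, with a black line at each group mean and a dotted line at the floor of 16. KI and WT arrays do not overlap for any of the 13, and the gap is narrow for Gpr39.

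Across the 12 receptor genes higher in KI, WT 1 was the lowest WT array for 10 and KI 1 the highest KI array for 9. Of the 8 macrophage markers, WT 1 was lowest for 8 and KI 1 highest for 6. These counts were 5 and 8 for the 9 markers of neutrophils and myeloid progenitors. They were 0 and 5 for the 6 stromal markers, and 0 and 2 for the 8 osteoclast markers. The share of all genes with this order was not tested. Among the 8 receptor genes lower in KI, WT 1 was the lowest WT array for 5 and the highest for 2. Without WT 1 and KI 1, P2ry13 (1.96), Gpr160 (1.57), Gpr176 (1.40) and P2ry6 (1.05) remained past the threshold, with smaller differences.

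Of 10 Gpr genes listed for proteins of internal membranes, among them the transcribed pseudogene Gpr137b-ps, 1 was higher and 2 were lower. This is 30% called beside 26.8% of all genes. Of the 10, 8 had a mean above the median of all probe sets, where 40.9% of all genes were called. By limma the counts were 0 and 3 under newer-control scaling (2 and 4 at an unadjusted p under 0.05) and 1 and 4 with the older controls. Of all genes, 34.3% and 47.3% were called under these scalings. Gpr108, a Golgi protein, gave 1228, 1297 and 1436 in WT and 1865, 1720 and 1649 in KI, a log2 difference of 0.40 (SE 0.08, adjusted p = 0.020). The groups were apart, but the call ended without WT 2 (0.062), KI 1 (0.060), KI 2 (0.058) or KI 3 (0.054), without WT 1 and KI 1 (0.054) and under newer-control scaling (0.20, adjusted p = 0.093), and the sign turned under older-control scaling (-0.13, adjusted p = 0.67). Its relative Gpr107 gave 872, 1001 and 1124 in WT and 1294, 1148 and 1254 in KI, a difference of 0.31 (SE 0.11, adjusted p = 0.090). It passed among the top 30% of genes alone (adjusted p = 0.046) and turned to -0.22 under older-control scaling.

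Gpr180, a membrane protein linked to transforming growth factor signalling, gave 821, 766 and 777 in WT and 627, 624 and 618 in KI. The difference was -0.34 (SE 0.05, adjusted p = 0.0096), and the KI arrays were nearly equal. The call ended without KI 3 (adjusted p = 0.052), and the difference was -0.55 and -0.87 under the control scalings.

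Gpr137b encodes a lysosomal membrane protein, and Gpr137b-ps is annotated as a transcribed pseudogene copy of it. The probe set of Gpr137b-ps gave 11335, 10412 and 11138 in WT and 7497, 7855 and 7466 in KI, a log2 difference of -0.53 (SE 0.05, adjusted p = 0.0030), and the call was kept with each array left out. The probe set chosen for Gpr137b gave 10132, 8653 and 8860 in WT and 8276, 7523 and 7400 in KI, a difference of -0.25 (SE 0.08, adjusted p = 0.071). Its other probe sets differed by -0.61 and -0.42, which passed over all probe sets, and by 0.01. Gpr137b passed when all its probe sets were averaged (-0.32, adjusted p = 0.013) and when those that can match several transcripts were left out (-0.42, adjusted p = 0.016). It also passed under newer-control scaling (-0.46, adjusted p = 0.025) and older-control scaling (-0.78, adjusted p = 0.0098), without WT 1 and KI 1 (adjusted p = 0.017) and with both filters on low signal. The probe sets used for Gpr137b and Gpr137b-ps can match several transcripts, so the signal of the gene and of its copy is uncertain.

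Gpr155, a lysosomal protein that senses cholesterol, gave 202, 527 and 662 in WT and 1592, 802 and 957 in KI. The groups did not overlap, and the arrays within each were far apart, so that the log2 difference of 1.37 (SE 0.51, adjusted p = 0.11) did not pass. It was 0.57 (adjusted p = 0.088) without WT 1 and KI 1, and 0.84 with a pass (adjusted p = 0.011) under older-control scaling. Gpr89, a Golgi protein needed for its acid pH, gave 999, 863 and 925 in WT and 893, 925 and 921 in KI, a difference of -0.023 (SE 0.07, adjusted p = 0.85). Gpr137, Gpr137c and Gpr143 did not pass.

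The 42 members not named by the rule lay between -0.30 and 0.26 on the log2 scale, and the smallest adjusted p among them was 0.0502 (Gpr165, 31.5 to 35.1 in WT and 37.6 to 39.7 in KI). Groups did not overlap for 4 of the 42, against 45.5% of all genes. These were Gpr165, Gpr137c (0.20), Gpr61 (-0.11) and Gpr135 (-0.30), all with intensities between 27.8 and 48.1. Of the 42 members, 37 had a mean intensity under 100. Gpr19, an orphan receptor, showed 347 to 414 in both groups on its chosen probe set (0.037), while a second probe set with intensities of 36.2 to 51.7 fell by 0.40 (adjusted p = 0.013 over all probe sets).

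Genes that release, trim or take up nucleotides, and the G proteins and arrestins that receptors act on, were listed beside the receptors. Of 57 measured, 17 were higher in KI, 5 lower and 35 did not pass, beside 11.9% and 14.9% of all genes. The mean of 40 of them lay above the median of all probe sets, and all 22 calls came from these. Of all genes above that median, 17.8% were higher and 23.1% lower. The list gave 9 higher and 12 lower under newer-control scaling (34.3% of all genes called), and 5 higher and 20 lower with the older controls (47.3%). Single arrays moved the counts as well: 8 were higher without KI 1 (15.2% of all genes called), 11 without KI 2 (17.4%) and 7 without KI 3 (11%). Lower counts were 3 without WT 1 (24.1%), WT 2 (18%) or KI 3.

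Of 29 G protein and arrestin genes, 11 were higher and 1 lower, where 26.8% of all genes were called. Counts were 6 and 4 under newer-control scaling (34.3% of all genes called) and 3 and 8 with the older controls (47.3%). Without KI 1 and without KI 3, 6 and 5 were higher, where 15.2% and 11% of all genes were called. Gna15, a G protein alpha subunit of blood cells that couples many receptors to phospholipase C, gave 217, 240 and 209 in WT and 612, 588 and 548 in KI. Its log2 difference was 1.39 (SE 0.08, adjusted p = 0.0012), and the groups were far apart with little spread. Gng2, a gamma subunit, gave 1141, 1614 and 1724 in WT and 5017, 4250 and 4728 in KI, a difference of 1.66 (SE 0.17, adjusted p = 0.0039). Gnb4, a beta subunit, was the gene that fell, from 1437, 1135 and 1216 in WT to 629, 658 and 578 in KI, a difference of -1.02 (SE 0.11, adjusted p = 0.0041).

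Arrb2, the arrestin that switches off and internalises receptors, rose by 0.93 (SE 0.11, adjusted p = 0.0048), from 2352 to 2939 in WT and 4901 to 5567 in KI, and did not pass under older-control scaling (0.40, adjusted p = 0.17). Gnaq, the alpha subunit that couples to phospholipase C, differed by 0.31 (SE 0.04, adjusted p = 0.0059), and by 0.10 (adjusted p = 0.28) and -0.22 (adjusted p = 0.44) under the control scalings.

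Of 28 genes of nucleotide release and breakdown, 6 were higher and 4 lower, where 26.8% of all genes were called. Counts were 3 and 8 under newer-control scaling (34.3% of all genes called) and 2 and 12 with the older controls (47.3%). Higher counts were 3 without WT 3 (19.4% of all genes called) or KI 2 (17.4%) and 2 without KI 1 (15.2%) or KI 3 (11%). Lower counts were 2 without WT 1 (24.1%), WT 2 (18%) or KI 3. Pnp, which splits inosine and guanosine, was higher by 0.48 (SE 0.06, adjusted p = 0.0053), but by 0.27 (adjusted p = 0.051) and -0.051 (adjusted p = 0.86) under the control scalings. Entpd5, a nucleoside diphosphatase of the endoplasmic reticulum, gave 366 to 406 in WT and 605 to 629 in KI, a difference of 0.66 (SE 0.06, adjusted p = 0.0035), or 0.13 (adjusted p = 0.68) under older-control scaling and 0.33 with all its probe sets averaged. Entpd7 fell by 0.52 (SE 0.06, adjusted p = 0.0054), and Ampd2, an AMP deaminase, by 0.88 (SE 0.12, adjusted p = 0.0066).

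Entpd1, the surface enzyme CD39 that trims ATP and ADP, was singled out after its values were seen, because it acts on the ligands of P2ry13, P2ry1 and P2rx4. It gave 132, 395 and 470 in WT and 1573, 1106 and 1101 in KI, a log2 difference of 2.09 (SE 0.51, adjusted p = 0.033), with WT 1 the lowest array and KI 1 the highest. It did not pass once WT 2 (adjusted p = 0.061), KI 1 (0.10), KI 2 (0.078) or KI 3 (0.090) was left out. Nt5e, the enzyme CD73 that makes adenosine from AMP, lay between 118 and 128 on all arrays and differed by 0.013 (SE 0.07). Acpp, a phosphatase that can also act on AMP, gave 146, 162 and 195 in WT and 114, 83.1 and 61.7 in KI, a difference of -0.99 (SE 0.25, adjusted p = 0.034). Its call ended without WT 1 (0.058), WT 2 (0.086), WT 3 (0.095), KI 2 (0.090) or KI 3 (0.075). The nucleoside transporter Slc29a2 was lower by a log2 value of -0.51 (SE 0.13, adjusted p = 0.043). It no longer passed without WT 1 (0.092), WT 2 (0.068), WT 3 (0.087), KI 1 (0.12) or KI 3 (0.13).

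**Figure D4:**
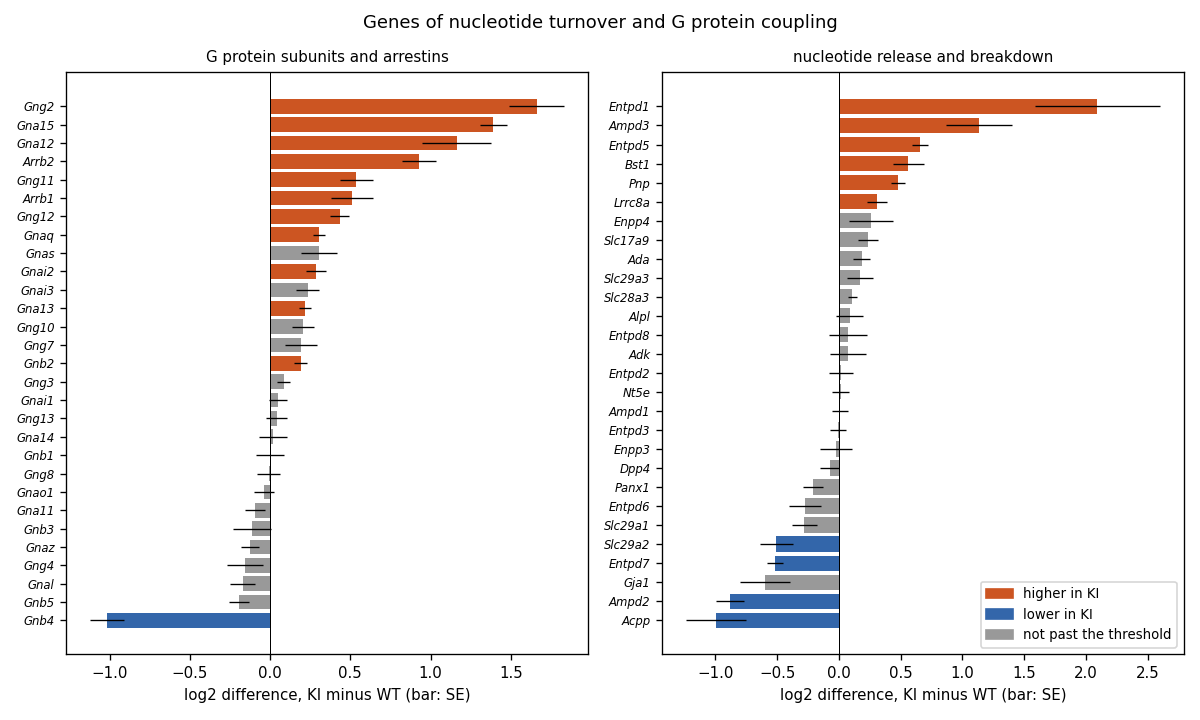
Log2 difference KI minus WT with its SE for 29 G protein and arrestin genes and 28 genes of nucleotide release and breakdown, orange where higher in KI, blue where lower and grey where not past the threshold. Entpd1 (2.09) and Gng2 (1.66) have the longest bars to the right, and Gnb4 (-1.02) and Acpp (-0.99) to the left.

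**Figure D5:**
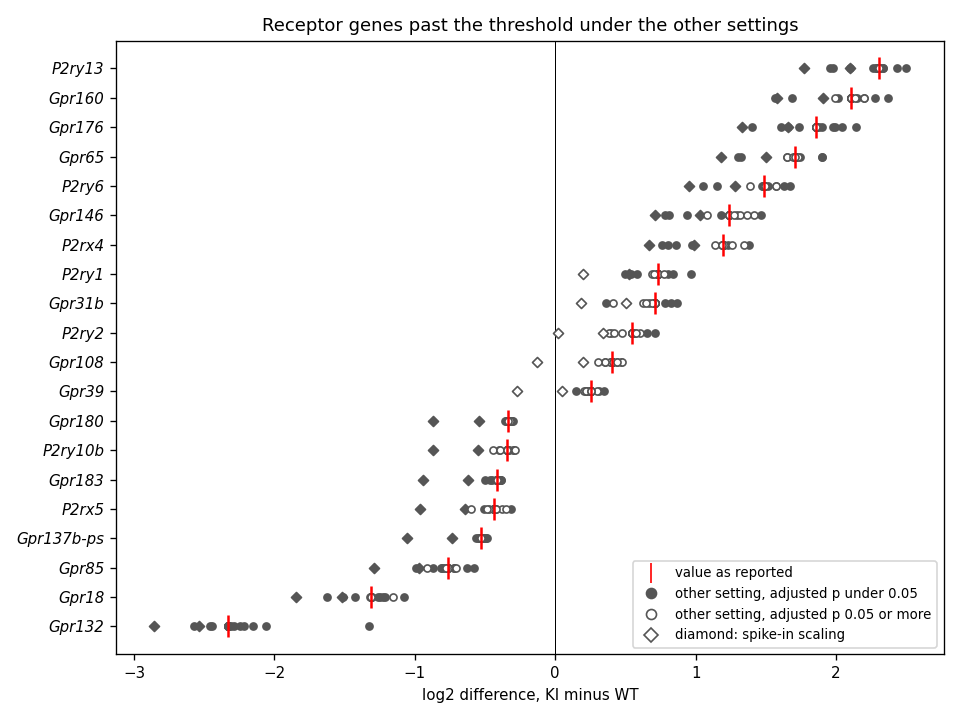
Log2 difference KI minus WT of each of the 20 receptor genes past the threshold under every other setting of the analysis, filled where the adjusted p was under 0.05 and open where it was not, with diamonds for both control (spike-in) scalings and a red bar at the reported value. Gpr132 has filled symbols throughout, and Gpr108 and Gpr39 cross 0 under older-control scaling.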

How the data were processed

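Labelled RNA of each sample was hybridised to 1 Affymetrix mouse array. The deposited table gives an intensity for each of 45101 probe sets on a linear scale, made by the authors with Affymetrix Expression Console, per the submitters' processing notes. Its version and how arrays were normalized: not given in the sources used here. Of 45037 non-control probe sets, 34945 carried 1 gene symbol in the platform annotation. The 932 with several symbols and the 9160 without a symbol were not used for genes. Intensities were set to at least 16, the floor, and taken to log2. For each gene, KI was compared with WT on all 6 arrays by limma 3.58.1 in R 4.3.3 with an intensity trend and no filter; p-values were adjusted by Benjamini-Hochberg over 18193 genes. The same steps were tested on simulated data. Other probe sets were read from a fit of all 45037. All 75 members matched a RefSeq gene (GRCm38.p6).

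The members, lists, tests and alternatives were chosen with earlier results of these data known. Named were all P2 and adenosine receptor genes, up to 10 rises and 10 falls of Gpr genes, the 5 Gpr genes not past the threshold with the highest mean, and up to 6 pathway rises and 6 falls by p; other genes were named after their values were seen. The number of arrays limits the precision.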

Additional observations from a re-analysis of the deposited data

How the results depend on the processing

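Counts of receptor genes higher and lower, 12 and 8 as reported, were 5 and 4 among the top 30% of genes by mean, 4 and 3 with the samples' description number as a covariate, and 0 and 1 by limma with a block for replicate number (14 and 11 at an unadjusted p under 0.05, and 146 and 198 of all genes by adjusted p). Lower counts were 14 with newer controls and 29 with older ones, where 4961 and 8186 of all 18193 genes were lower. Leaving out single arrays gave 2 to 10 higher and 4 to 9 lower, where 11% to 24.1% of all genes were called. Of the 57 nucleotide and G protein genes, 17 higher and 5 lower as reported, the counts were 9 and 12 with newer controls, 5 and 20 with older ones, 7 and 3 with the covariate, and 1 and 0 with the replicate block (18 and 6 at an unadjusted p under 0.05). They were 7 to 17 and 3 to 5 with single arrays left out. Among the top 30% of genes 2 were lower, where 13 of the 29 G protein and arrestin genes and 7 of the 28 others remained. The receptor call kept under the block was that of Gpr132. Arrays of the same number did not deviate together (r of -0.37, -0.26 and -0.27 over genes), so the numbers were not taken as pairs. The remaining alternatives kept each of these counts within 1.5 times.

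Counting each named gene under each alternative, 23 values turned sign, 19 of them without a call in either fit. Under newer-control scaling these were Adora3 (-0.085), P2ry10 (-0.063), P2rx1 (-0.075), P2rx6 (-0.076) and P2rx3 (-0.17). Under older-control scaling they were Adora3 (-0.41), P2ry10 (-0.33), P2rx1 (-0.40), P2rx6 (-0.40), P2rx3 (-0.49), Gpr108 (-0.13), Gpr39 (-0.27), Gpr107 (-0.22), Pnp (-0.051) and Gnaq (-0.22). P2rx3 turned without KI 1 (single arrays left out: -0.0018 to 0.085) and with 1 mean per gene (-0.043). P2rx2 turned without KI 1 (range -0.12 to 0.047) and without WT 1 and KI 1 (0.075). Gpr162 turned without WT 1 and KI 1 (-0.12), and Gpr89 with quantile normalization (0.041), without WT 1 (range -0.075 to 0.031) and without WT 1 and KI 1 (0.047). Counted the same way, 129 values lost a call and 18 gained one; the cause was not tested.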
